A study of Mus musculus with 15 samples.

Results

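The comparison described here asks which liver transcripts were still away from the untreated level 10 days after a course of thyroid hormone had ended. T3 (liothyronine) is the active thyroid hormone. Male C57BL/6 mice of the T3 withdrawal group received 14 daily intraperitoneal injections of 20 µg L-T3 per 100 g body weight and were killed 10 days after the last one. The untreated group of the same experiment subset, baseline B, is the control, and no injections are given for it. Each group has 3 arrays, chosen by the sample titles, so 6 of the 15 arrays of the series enter the comparison, and all 8976 genes with a detected probe were examined. The reference levels are chronic T3 (the same 14 injections, killed 6 h after the last) and acute T3 (1 injection, killed 6 h later). A further reference is baseline A, the untreated group that went with acute T3. The spread between arrays is estimated from all 15, so these groups also shape the errors, intervals and p-values. All 5 groups share the strain, the sex, a 12 h light and 12 h dark cycle, free access to food and a labelled age of 8 weeks. No group is given as injected without T3, so a lasting effect of the hormone and one of 14 injections cannot be told apart. Nothing in the sources used here says that each array is a separate animal, so the errors measure the spread between these samples.

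Thyroid hormone acts through nuclear receptors that sit on DNA with or without the hormone, as activators when T3 is bound and often as repressors when it is not. In the liver the hormone raises genes of lipid synthesis, sterol handling and energy use and lowers others, and many of these responses reverse when the hormone is cleared. Ntrk2, the marker gene of this comparison, picked with earlier results of these data known, encodes TrkB, the receptor tyrosine kinase for brain-derived neurotrophic factor, known best from neurons and made in forms with and without the kinase domain.

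Ntrk2 was the 1 gene that stood apart from baseline B after withdrawal, which is 0.0111% of the 8976 genes tested, and no gene fell (0%). On the normalized log2 scale its level was 8.31, 8.48 and 8.23 on the 3 withdrawal arrays and 5.53, 5.03 and 6.30 on the 3 baseline B arrays. Every withdrawal array lay above every baseline array, and the withdrawal arrays lay closer together than the baseline ones. The transcript was detected on 3 of 3 withdrawal arrays and on 0 of 3 baseline B arrays, so the baseline holds only a bound, and Ntrk2 was at least 3.7-fold higher after withdrawal. The fitted log2 difference of the measured signals was 2.72 ± 0.27 (moderated SE, n = 3 arrays a group; adjusted p = 0.00156, limma's moderated test with Benjamini-Hochberg adjustment over all genes).

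Before any normalization the pattern was already visible in the deposited signals of the same probe. They were 460.9, 498.0 and 433.5 after withdrawal and 130.9, 118.3 and 184.0 in baseline B. After chronic T3 they were 1382, 1305 and 978.3. The withdrawal signals thus lay between those of the other 2 groups with no overlap on either side.

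After chronic T3 the normalized level of Ntrk2 was 10.07, 10.90 and 10.52, at least 16.6-fold above baseline B (adjusted p = 2.48e-07). From chronic T3 to withdrawal it fell by 2.16 on the log2 scale (SE 0.27; adjusted p = 0.000201). In the other untreated group, baseline A, it was 5.99, 5.73 and 5.82 and was detected on 0 of 3 arrays, and the withdrawal level was at least 5.04-fold above it (adjusted p = 0.000268). After acute T3 the level was 6.14, 6.52 and 6.14, detected on 3 of 3 arrays but far below that after withdrawal. These comparisons share the withdrawal or the baseline B arrays with one another. The array carries 4 probes for Ntrk2, of which 1 passed the detection filter, and the other 3 were detected on at most 1 of 15 arrays. Which form of the receptor the measuring probe reads is not given in the sources used here.

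**Figure D1:**
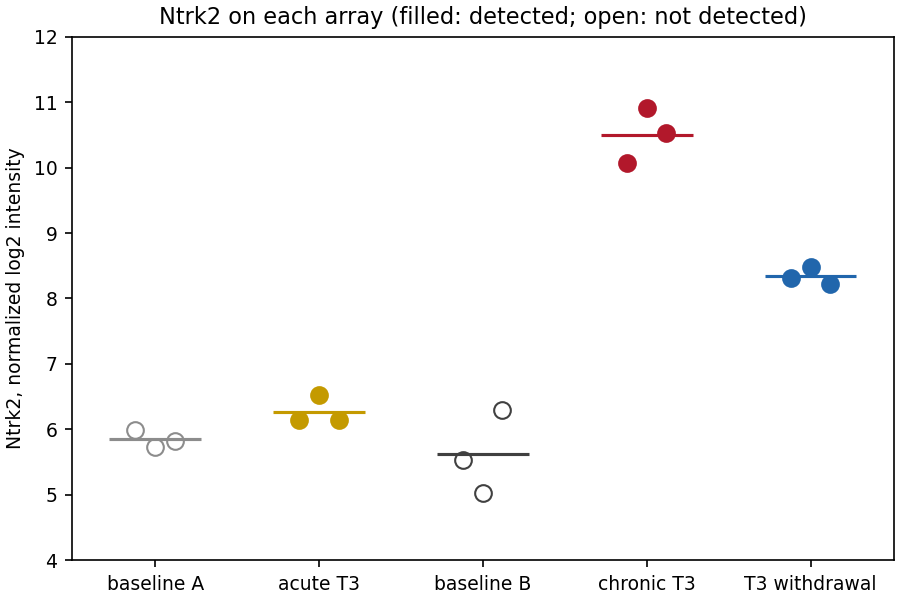
Normalized log2 intensity of Ntrk2 (vertical axis) on each of the 15 arrays in 5 groups. Each point is 1 array, filled where the probe was detected and open where it was not, and the bar is the group mean. The 3 withdrawal arrays lie between 8.23 and 8.48, above all baseline arrays and below all chronic T3 arrays.

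The call of Ntrk2 held without each of the 6 arrays in turn (log2 differences 2.43 to 3.06, adjusted p 0.000134 to 0.0183). It was lost where the spread was estimated from fewer arrays. The difference stayed at 2.72, but the adjusted p was 0.166 with only the 6 arrays compared and 0.0854 with the 9 arrays of the second experiment subset.

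The sequence just before the start of Ntrk2 is shown because it is the gene the comparison turns on. Thyroid hormone receptors bind copies of the half-site AGGTCA, often as a direct repeat with 4 bases between the copies. The 250 bases upstream of the RefSeq start, from GRCm38.p6, lie on the plus strand at chr13:58806319-58806568:

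Ntrk2: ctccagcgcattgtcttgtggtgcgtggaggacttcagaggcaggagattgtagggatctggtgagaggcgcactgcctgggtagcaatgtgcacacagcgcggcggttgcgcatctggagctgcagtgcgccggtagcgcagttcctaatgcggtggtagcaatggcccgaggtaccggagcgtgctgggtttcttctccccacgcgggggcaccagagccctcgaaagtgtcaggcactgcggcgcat

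No letters are capitalized, because the window holds 0 matches to the half-site on either strand and 0 to the spaced repeat. Of 32851 windows of the same length, 14.0% hold the half-site and 0.0152% the spaced repeat. The window is 62.8% G and C, against a median of 52.4%. That these letters are missing here says nothing on receptor binding elsewhere.

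For most of the remaining genes the residual differences were small, and the arrays set limits on their size. The log2 difference between withdrawal and baseline B had a median of 0.03 over all genes, its quartiles were -0.11 and 0.18, and all but the outermost 1% on each side lay between -0.73 and 0.79. The median absolute difference was 0.143, against 0.287 for chronic T3 minus baseline B, 0.249 for withdrawal minus chronic T3 and 0.261 between the untreated baselines B and A. The 95% interval of the withdrawal difference lay within 2-fold either way for 7714 genes (85.9%) and within 1.5-fold for 4739 genes (52.8%). Under median scaling, which moves all differences upward, 5008 genes had an interval within 2-fold, and 7535 once differences were taken relative to the median of all genes. For the other 1262 genes (14.1%) a residual change of 2-fold or more lies within the interval. The median distance from a gene's difference to either end of its interval was 0.40 on the log2 scale.

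The fitted difference was 2-fold or more upward in 33 genes (0.368%) and downward in 23 (0.256%). An unadjusted p under 0.05 was reached by 662 genes (7.38%), of which 458 were higher (5.1%) and 204 lower (2.27%) after withdrawal. An unadjusted p under 0.01 was reached by 165 genes (1.84%), 110 higher (1.23%) and 55 lower (0.613%). The 3 withdrawal arrays did not overlap the 3 baseline B arrays in 1305 genes (14.5%), 823 higher (9.17%) and 482 lower (5.37%). With the same test and threshold, chronic T3 against baseline B gave 2052 calls (22.9%), withdrawal against chronic T3 1538 (17.1%) and baseline B against baseline A 782 (8.71%).

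**Figure D2:**
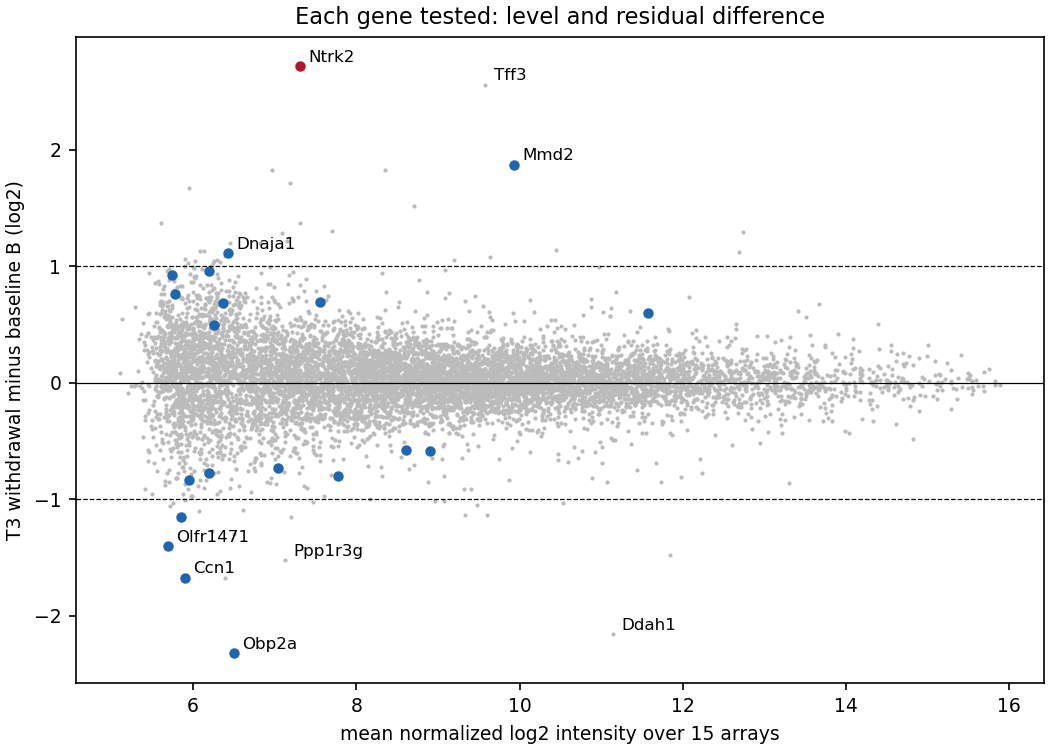
Each point is 1 of the 8976 genes, with its mean normalized log2 intensity over 15 arrays (horizontal axis) and its log2 difference, T3 withdrawal minus baseline B (vertical axis). Red marks Ntrk2, the 1 gene past the threshold, blue the genes of smallest unadjusted p in each direction, and the dashed lines a 2-fold difference. The largest differences of the measured signals upward are those of Ntrk2 (2.72) and Tff3 (2.56), and downward those of Obp2a (-2.32) and Ddah1 (-2.15).

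The arrays themselves differed in brightness. The mean signal was 684.5 to 697.4 on the withdrawal arrays and 525.4 to 632.6 on the baseline B arrays, without overlap, and 12723 to 13972 against 11049 to 12998 of 45281 probes were detected. Between arrays of the 2 groups the correlation over genes was 0.976 to 0.983, against 0.983 to 0.986 among withdrawal arrays, 0.978 to 0.980 among baseline B arrays and 0.947 to 0.960 between withdrawal and chronic T3. The hepatocyte genes Apoa1, Apob, Ttr, Hnf4a and Alb were detected on 15 of 15 arrays. Median scaling, which does not force 1 distribution on all arrays, moved the median difference of all genes from 0.03 to 0.40, so differences are relative to the bulk of genes. Fewer cells of a type and less RNA per cell cannot be told apart in whole tissue.

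Among the 10 genes of smallest unadjusted p that were higher after withdrawal, Ntrk2 passed and the other 9 did not (adjusted p 0.196 to 0.338). Dnaja1, a co-chaperone of Hsp70-type heat shock proteins, had levels of 6.50, 6.83 and 6.85 after withdrawal and 5.58, 6.09 and 5.16 in baseline B. It was detected on all withdrawal arrays and on 0 of 3 baseline arrays, which gives at least 1.21-fold (adjusted p = 0.196). Ddx31, an RNA helicase of the DEAD-box family, read 6.62, 6.41 and 6.43 against 5.64, 5.86 and 5.92, and was at least 1.03-fold higher (adjusted p = 0.196). For both genes the withdrawal arrays lay above the baseline B arrays, at levels near the detection limit. In baseline A Ddx31 read 6.37, 6.52 and 6.19, overlapping the withdrawal arrays, and Dnaja1 read 5.99, 5.92 and 6.05, below them.

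Mmd2, a membrane protein of the progestin and adipoQ receptor family, had the largest difference of these 10 genes after Ntrk2. Its level was 10.36, 9.72 and 9.36 after withdrawal, 8.36, 7.88 and 7.58 in baseline B and 10.97, 12.18 and 11.60 after chronic T3. The difference from baseline B was 1.87 ± 0.41 (adjusted p = 0.338). Baseline A, at 10.09, 9.96 and 9.68, lay in the range of the withdrawal arrays. Rdh11, a retinol dehydrogenase, was high on all arrays, with 11.66, 12.06 and 11.78 after withdrawal and 11.30, 11.21 and 11.17 in baseline B. Its difference was 0.60 ± 0.14 (adjusted p = 0.338), and a second probe gave 0.43. Against baseline A it was 0.59 higher (adjusted p = 0.0362).

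Nkrf, a repressor of NF-kappa B target genes, read 7.75, 7.82 and 7.79 after withdrawal and 7.10, 7.10 and 7.08 in baseline B, a difference of 0.69 ± 0.14 (adjusted p = 0.261). On baseline A arrays it read 7.74, 7.71 and 7.15, near the withdrawal level on 2 arrays and near baseline B on 1. The remaining genes were dim. Rps15a, a ribosomal protein with near-identical pseudogenes that could share its signal, was at least 1.01-fold higher, and Rad51d of homologous recombination at least 1.03-fold. Sufu, an inhibitor of Hedgehog signalling, and the tubulin ligase Ttll11 were detected on 0 of 3 baseline B arrays and on 1 and 0 withdrawal arrays. No fold is given for a gene that most arrays of both groups did not detect.

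Of the 10 genes leading in the other direction, 0 passed (adjusted p 0.118 to 0.386). Olfr1471, an olfactory receptor gene, came nearest. Its level was 5.47, 5.32 and 5.45 after withdrawal, where it was not detected, and 6.73, 6.32 and 7.39 in baseline B, where it was detected on 3 of 3 arrays, at least 1.61-fold lower after withdrawal (adjusted p = 0.118). Baseline A, at 5.54, 5.27 and 5.37, and chronic T3, at 5.11, 5.19 and 5.45, were also not detected. Baseline B was thus the 1 of these 4 groups in which the gene was detected.

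Obp2a, an odorant-binding lipocalin, read 4.99, 5.87 and 6.24 after withdrawal and 8.36, 6.96 and 8.75 in baseline B, at least 3.73-fold lower (adjusted p = 0.338). After chronic T3 it read 5.07, 5.59 and 4.93, and in baseline A, where it was detected on 3 of 3 arrays, 6.40, 6.85 and 7.09. All withdrawal arrays therefore lay below all arrays of both untreated groups. Ccn1, a matricellular protein induced by growth factors and stretch, read 5.13, 4.79 and 5.20 against 7.31, 6.02 and 6.80 in baseline B, where 1 of 3 arrays detected it, so no fold is given (adjusted p = 0.386). A second Ccn1 probe differed by -0.92.

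The histone H4 genes H4c3 and H4c11, whose near-identical copies can share signal, both stood in the list. H4c3 read 5.21, 5.43 and 5.45 after withdrawal and 6.44, 6.68 and 6.42 in baseline B, where 2 of 3 arrays detected it, at least 1.31-fold lower (adjusted p = 0.232). H4c11 read 7.20, 7.38 and 6.86 against 7.79, 7.80 and 8.23, a difference of -0.80 ± 0.18 (adjusted p = 0.338). After chronic T3 H4c3 read 5.39, 5.32 and 5.08 and H4c11 8.19, 8.16 and 8.22, so H4c3 was low and H4c11 was not. Set against the mean of both untreated groups, H4c3 (adjusted p = 0.0333) and H4c11 (adjusted p = 0.0482) passed the threshold.

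The other leading genes were Neu3, a sialidase of gangliosides (detected on 1 of 3 baseline B arrays and 0 of 3 withdrawal arrays, so no fold is given), Reck, a membrane-anchored inhibitor of metalloproteinases (-0.77 ± 0.18), Cnr2, the cannabinoid receptor of immune cells (-0.73 ± 0.18), Ppfibp2, a liprin (-0.58 ± 0.14), and the calpain Capn10 (-0.57 ± 0.14). Second probes were smaller for Reck (-0.30), Cnr2 (-0.51) and Ppfibp2 (-0.43), and those of Capn10 gave -0.16 and 0.10. Withdrawal overlapped baseline A for Cnr2 (a difference of 0.24) and Capn10 (0.06), and lay below it for Ppfibp2 (-0.68). The baseline A arrays of Reck, at 5.79, 5.73 and 5.50, lay below the withdrawal arrays at 6.22, 6.54 and 6.31, which in turn lay below baseline B at 7.34, 7.01 and 7.05.

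**Figure D3:**
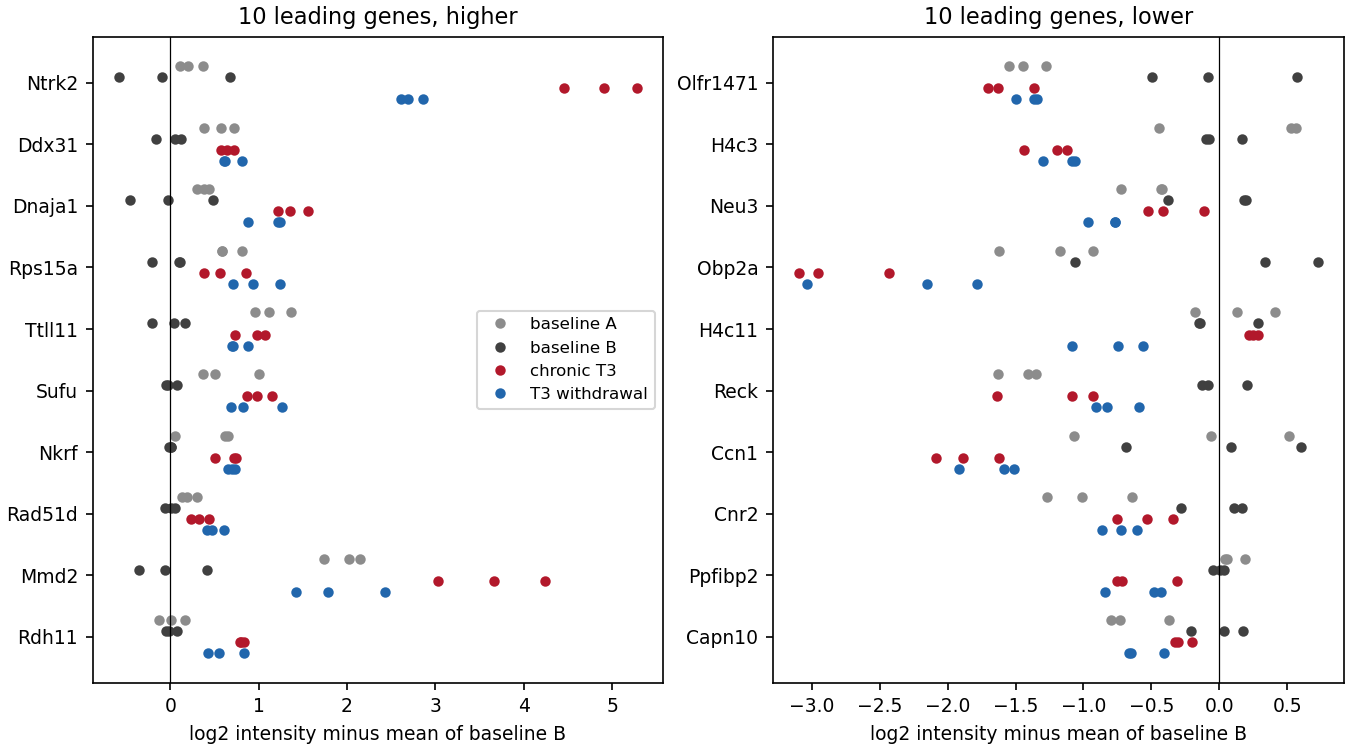
Log2 intensity minus the mean of baseline B (horizontal axis) for the 10 genes of smallest unadjusted p in each direction. Each point is 1 array, and the colours are baseline A, baseline B, chronic T3 and T3 withdrawal. Withdrawal and baseline B do not overlap in any of the 20 genes, which the choice of the genes favours. Baseline A overlaps the withdrawal arrays for Mmd2, Ddx31, Rps15a, Olfr1471, Cnr2 and Capn10, among others. By group means, baseline B lies below baseline A in all 10 higher genes and above it in 7 of the 10 lower ones. The choice of the genes favours that too.

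Genes with the largest responses to chronic T3 were followed to withdrawal. They were chosen by chronic T3 minus baseline B, so their return toward baseline B shares those arrays with the choice and is given as values only. Of the 12 largest rises, 7 were not detected on any baseline B array and were at least 5.25-fold to at least 16.6-fold higher after chronic T3. Of these 7, Ntrk2 was detected on all withdrawal arrays, Cxcl14 and Ttbk1 on 2 of 3, and the other 4 on none. The 5 rises detected on at least 1 baseline B array (Cyp17a1, Akr1c18, Tff3, Pnpla3 and Pfkfb4) spanned 3.77 to 5.25 on the log2 scale after chronic T3 and 0.08 to 2.56 after withdrawal. Akr1c18 and Pfkfb4 were each detected on 1 of 3 baseline B arrays, so their values are no exact differences. The 12 largest falls spanned -5.98 to -3.38 after chronic T3 and -2.15 to 0.13 after withdrawal, with a median of -0.59. Of these, Olig1 was detected on 0 of 3 chronic T3 arrays and was at least 6.05-fold lower there. Etnppl, Hsd17b6, Ppp1r3g and Serpina7 were each detected on 1 of 3 chronic T3 arrays, so their chronic falls are no exact differences. Ntrk2 was the 1 of these 24 genes called after withdrawal, against 0.0111% of all genes.

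Some strong responders lay close to the untreated level. Cyp2c23, a cytochrome P450, read 14.04, 13.81 and 14.0 in baseline B, 10.40, 10.01 and 10.23 after chronic T3 and 14.09, 13.68 and 14.13 after withdrawal. Its withdrawal difference of 0.01 had a 95% interval of -0.31 to 0.33. The intervals were wider for the lipid transporter Abca8a (-0.09; -0.73 to 0.55) and the NADPH oxidase Nox4 (-0.10; -0.72 to 0.52). Serpina7, the thyroxine-binding globulin, read 9.76, 9.52 and 8.89 in baseline B and 9.77, 8.92 and 9.87 after withdrawal, after 7.44, 4.62 and 4.80 with chronic T3, but its interval of -1.16 to 1.43 leaves a residual change of over 2-fold possible.

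Of the steroid-metabolizing genes among the rises, Akr1c18 overlapped baseline B and Cyp17a1 did not. Akr1c18, a hydroxysteroid dehydrogenase that inactivates progesterone, read 6.29, 5.19 and 5.28 in baseline B, 10.95, 10.66 and 10.19 after chronic T3 and 5.04, 6.10 and 5.87 after withdrawal. It was detected on 1 of 3 baseline B and 1 of 3 withdrawal arrays, so most of these readings lay near the background. Sult2a2, a sulfotransferase of steroids and bile acids, was not detected on any withdrawal or baseline B array. Cyp17a1, the hydroxylase and lyase of androgen synthesis, read 7.04, 8.16 and 7.41 in baseline B and 8.94, 8.56 and 8.28 after withdrawal, without overlap (1.06 ± 0.47, adjusted p = 0.657). Its chronic T3 arrays read 13.28, 12.49 and 12.58. The baseline A arrays of Cyp17a1, at 8.62, 7.27 and 7.97, overlapped those of withdrawal.

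Some responders lay part of the way between the groups without passing the test. Tff3, a secreted trefoil peptide, read 11.02, 9.87 and 8.63 after withdrawal, 5.36, 8.36 and 8.12 in baseline B and 12.23, 11.96 and 11.71 after chronic T3. The withdrawal difference was large but spread widely (2.56 ± 0.89, adjusted p = 0.512), and baseline A read 10.25, 11.13 and 10.21, in or just above the upper part of the withdrawal range. Cxcl14, a chemokine, read 5.22, 6.47 and 6.66 after withdrawal and 5.53, 5.0 and 4.73 in baseline B, where no array detected it (adjusted p = 0.512). The 2 withdrawal arrays that detected it lay above baseline B and the other lay within the baseline range, and the bound on the fold was under 1, so none is given.

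Rnase2a, a ribonuclease of the eosinophil family, read 6.24, 12.38 and 12.51 after chronic T3, so 1 chronic array stood apart, and it was not detected on any withdrawal or baseline B array. Wfdc16 and the centrosomal protein Cep126 were also not detected on any withdrawal or baseline B array. Pnpla3, a lipid droplet hydrolase, differed from baseline B by 0.89 ± 0.64 after withdrawal and Pfkfb4, a regulator of glycolysis, by 0.20 ± 0.36. Their chronic differences had been 4.35 and 3.77. The tau kinase Ttbk1, not detected in baseline B, was at least 8.25-fold higher after chronic T3, and after withdrawal it read 5.72, 6.69 and 6.59 against 5.61, 5.65 and 6.10, with overlap.

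On the side of the falls, Ddah1, the enzyme that degrades asymmetric dimethylarginine, read 11.39, 9.39 and 9.69 after withdrawal, 12.69, 11.73 and 12.51 in baseline B and 10.11, 7.47 and 6.66 after chronic T3. Its difference from baseline B was -2.15 ± 0.70 (adjusted p = 0.512) and that from chronic T3 was 2.08 (adjusted p = 0.059), so neither passed. Baseline A, at 12.68, 12.42 and 12.89, also lay above all withdrawal arrays. Ppp1r3g, which targets protein phosphatase to glycogen, read 8.28, 7.39 and 8.00 against 8.66, 9.71 and 9.87 in baseline B (-1.52 ± 0.44, adjusted p = 0.449). Here baseline A, at 8.42, 6.62 and 7.16, spanned the withdrawal range.

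The male-biased fatty acid hydroxylases Cyp4a12a and Cyp4a12b, near-identical copies that can share signal, lay below baseline B. Cyp4a12b read 12.60, 12.00 and 12.80 in baseline B, 7.18, 5.63 and 6.65 after chronic T3 and 11.72, 11.38 and 11.74 after withdrawal. Its withdrawal difference was -0.85 ± 0.31 and that of Cyp4a12a -0.66 ± 0.26 (adjusted p = 0.547 and 0.597), with no overlap of arrays in either gene. All withdrawal arrays also lay below all baseline A arrays, by -0.98 for Cyp4a12b and -0.77 for Cyp4a12a on average (adjusted p = 0.109 and 0.13). Olig1, a transcription factor known from glia, read 7.37, 7.70 and 8.19 against 9.34, 8.13 and 8.72 (-0.98 ± 0.38, adjusted p = 0.572). Hsd17b6, a hydroxysteroid dehydrogenase, read 10.58, 9.80 and 10.03 against 10.92, 10.49 and 10.95 in baseline B, after 7.36, 5.35 and 5.77 with chronic T3. The succinate receptor Sucnr1 differed by -0.53 ± 0.38 and Etnppl, which breaks down phosphoethanolamine, by -0.40 ± 0.79.

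**Figure D4:**
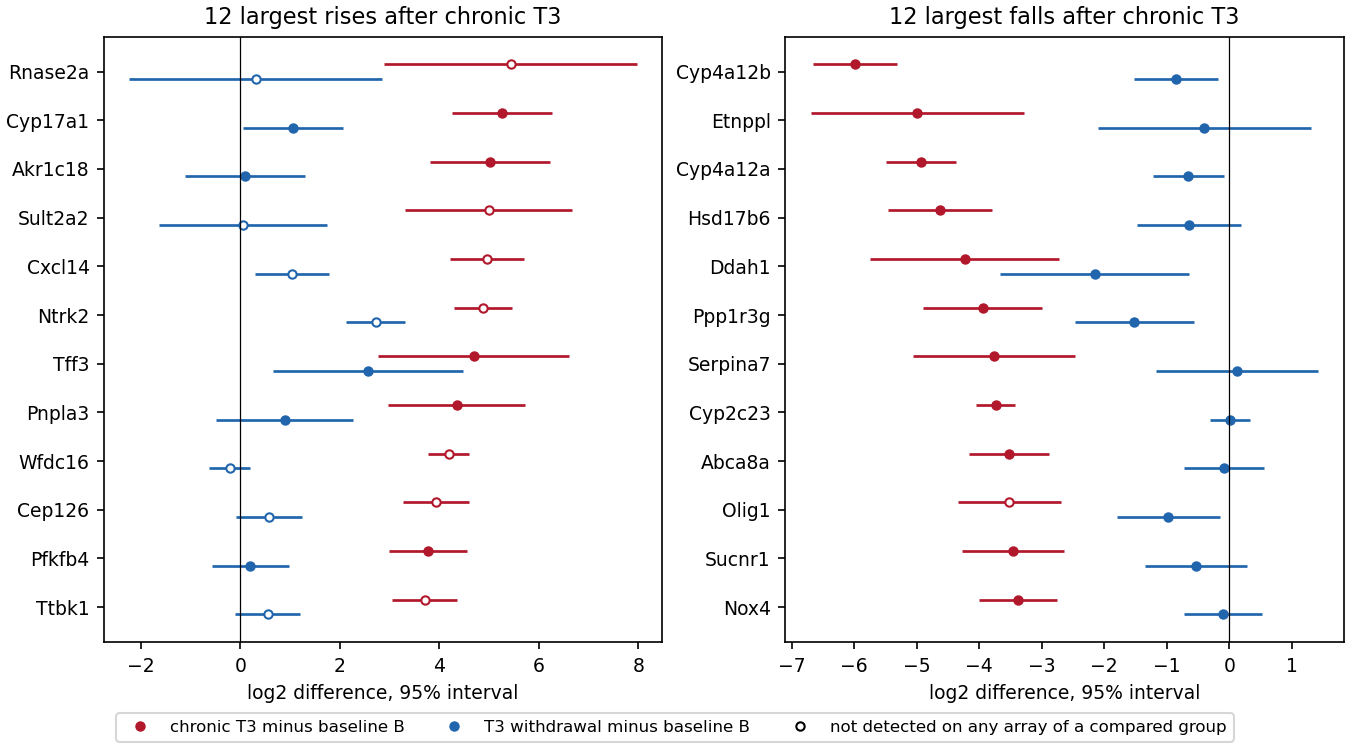
Log2 difference from baseline B (horizontal axis) with its 95% interval for the 12 largest rises and 12 largest falls after chronic T3, in red after chronic T3 and in blue after withdrawal. Open points mark genes not detected on any array of a compared group, whose value is a difference of measured signals and no exact difference. Withdrawal values of the 5 rises detected on at least 1 baseline B array lie from 0.08 to 2.56 and those of the falls from -2.15 to 0.13. The interval of Cyp2c23 is narrow while those of Rnase2a and Tff3 are wide.

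Of 11 genes chosen as known T3 targets or readouts of the question, 0 were called after withdrawal. Dio1, the deiodinase that both makes and clears active hormone and is raised by T3, read 10.24, 11.58 and 11.09 after withdrawal and 11.62, 11.87 and 11.84 in baseline B. All withdrawal arrays were below all baseline B arrays (-0.81 ± 0.27, adjusted p = 0.512), while chronic T3, at 13.05, 13.35 and 13.55, lay above. Baseline A read 11.07, 11.34 and 11.20, within the withdrawal range. Thrsp, a regulator of lipid synthesis and a classical T3 target, read 13.08, 13.99 and 13.93 after withdrawal and 12.92, 14.27 and 13.25 in baseline B (0.18 ± 0.33). Baseline A of Thrsp, at 10.23, 10.43 and 10.53, lay far below both.

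Hr, a corepressor raised directly by T3, was not detected on any withdrawal or baseline B array, after 8.87, 8.33 and 7.05 with chronic T3. Gpd2, the mitochondrial glycerol phosphate dehydrogenase, read 9.42, 10.18 and 10.12 against 9.91, 9.36 and 9.40 (0.35 ± 0.28). Cyp7a1, which starts the conversion of cholesterol to bile acids, read 12.12, 12.75 and 12.42 against 11.07, 12.40 and 12.42 (0.46 ± 0.33). The groups overlapped in both genes. Bcl3, a cofactor of NF-kappa B, was higher on average (0.79 ± 0.28, adjusted p = 0.525), and the hepatokine Fgf21 was too variable to place (0.57 ± 0.68). The malic enzyme Me1 (0.11 ± 0.28) and the receptor-induced factor Klf9 (-0.04 ± 0.15) lay near 0.

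The 33 gene lists held 728 genes, of which 516 were measured, and Ntrk2 was the 1 of these called (0.0111% of all genes). The lists are therefore described by their medians beside the median of all genes, 0.03. In the list of neurotrophin receptors and ligands 5 of 13 genes were measured, and those other than Ntrk2 were the low-affinity receptor Ngfr (0.14 ± 0.22), the sorting receptor Sort1 (0.02 ± 0.21) and the signalling adaptors Shc1 (0.12 ± 0.12) and Sh2b1 (0.14 ± 0.12), none of which passed. In the list of T3-induced liver genes, 14 of 27 were higher and 13 lower after withdrawal (median 0.01), against 8 that rose and 2 that fell after chronic T3 (12.4% and 10.5% of all genes). Among T3-repressed liver genes, 7 of 18 were higher and 11 lower (median -0.07), while 1 rose and 10 fell after chronic T3.

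In fatty acid synthesis 19 of 22 genes were higher after withdrawal, with a median of 0.28, beside 5018 of 8976 genes in all, and the median was 0.15 without baseline B replicate 1. Acly, which makes cytosolic acetyl-CoA, read 13.68, 14.18 and 14.17 after withdrawal and 13.40, 13.47 and 13.31 in baseline B, without overlap (0.62 ± 0.17, adjusted p = 0.395). After chronic T3 it read 13.13, 13.31 and 12.74, so withdrawal lay above both groups. Elovl2, an elongase of polyunsaturated fatty acids, read 12.08, 11.54 and 11.74 against 11.29, 11.17 and 11.04 (0.62 ± 0.18, adjusted p = 0.413). Elovl6, the elongase of saturated fatty acids, differed by 0.78 ± 0.27 and the fatty acid synthase Fasn by 0.95 ± 0.41, neither past the threshold. Against baseline A the differences were 0.14 for Elovl2, 0.65 for Acly, 1.93 for Elovl6 and 2.35 for Fasn. Those of Elovl6 (adjusted p = 0.00259) and Fasn (adjusted p = 0.00835) passed the threshold. Baseline B itself lay above baseline A by 1.15 for Elovl6 and 1.40 for Fasn. Against the mean of both untreated groups Elovl6 passed (adjusted p = 0.0333) and Fasn did not (adjusted p = 0.0995).

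In cholesterol synthesis and uptake 14 of 17 genes were higher (median 0.32), and 9 of the 17 had risen and 0 fallen after chronic T3. Of all genes tested, 12.4% rose and 10.5% fell after chronic T3. Lss, the cyclase that forms lanosterol, read 9.76, 9.91 and 9.64 after withdrawal, 9.0, 9.31 and 9.01 in baseline B and 9.87, 10.66 and 10.57 after chronic T3 (0.66 ± 0.21, adjusted p = 0.498). Mvd, the mevalonate diphosphate decarboxylase, read 8.49, 8.43 and 8.54 against 7.74, 7.68 and 7.95 (0.70 ± 0.29). In both genes the withdrawal arrays lay above baseline B without overlap. Dhcr7, the last enzyme of the pathway, differed by 0.38 ± 0.17. The list median was 0.215 without T3 withdrawal replicate 2 and 0.474 without T3 withdrawal replicate 1. Against baseline A it was 0.68, and the untreated baselines B and A themselves differed by a median of 0.50, more than withdrawal and baseline B.

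Antioxidant and xenobiotic enzymes had the lowest median of the lists with 5 or more measured genes, -0.27, and 30 of 33 were lower, beside 3958 of 8976 genes in all. Under median scaling the median of the list was 0.04, above 0 but below the 0.40 of all genes, and against baseline A it was -0.01. After chronic T3 21 of these 33 genes fell and 1 rose, beside 10.5% and 12.4% of all genes. Gstm2, a glutathione transferase, read 10.96, 11.38 and 11.24 after withdrawal and 12.12, 11.88 and 12.14 in baseline B (-0.85 ± 0.22, adjusted p = 0.386). The carboxylesterase Ces2a (-0.47 ± 0.21) and the cytochrome P450 Cyp2c29 (-0.43 ± 0.21) were lower without overlap of arrays too. Baseline A lay near baseline B for Gstm2, at 12.05, 11.78 and 12.07.

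In fatty acid oxidation 21 of 29 genes were lower (median -0.08, or 0.28 under median scaling, where all genes had 0.40). The median was -0.01 without T3 withdrawal replicate 2 and -0.19 without T3 withdrawal replicate 3. Acot3, a peroxisomal thioesterase, read 6.44, 5.24 and 7.45 against 7.53, 8.15 and 8.48 (-1.68 ± 0.51, adjusted p = 0.465), and Ppara, the nuclear receptor of this pathway, differed by -0.70 ± 0.26 (adjusted p = 0.562). In both genes the withdrawal arrays overlapped baseline A, with differences of -0.61 for Acot3 and 0.05 for Ppara. The immediate early gene Fos read 6.29, 6.81 and 6.23 against 7.91, 8.24 and 7.08 (-1.30 ± 0.38, adjusted p = 0.447). Both Acot3 and Fos were lower on all withdrawal arrays than on all baseline B arrays.

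In the list of the integrated stress response and ER stress 13 of 21 genes were higher (median 0.21, and -0.16 against baseline A). The median was 0.10 without baseline B replicate 1 and 0.13 without T3 withdrawal replicate 2. Asns, the asparagine synthetase, read 10.19, 7.90 and 8.39 after withdrawal, 6.63, 7.55 and 7.73 in baseline B and 8.90, 10.11 and 9.63 in baseline A (1.52 ± 0.53, adjusted p = 0.512). Hsp90b1, a chaperone of the endoplasmic reticulum, differed by 0.56 ± 0.18 (adjusted p = 0.483). In acute phase and inflammation 18 of 28 genes were higher (median 0.17, but -0.01 without T3 withdrawal replicate 2), and in the clock list 12 of 14 (median 0.16, but 0.04 without T3 withdrawal replicate 1), where the untreated baselines B and A differed by a median of 1.06.

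In glucose and glycogen metabolism 8 of 19 genes were higher and 11 lower (median -0.02), and the member of smallest p beside Ppp1r3g was G6pc, the glucose-6-phosphatase of glucose release (-0.86 ± 0.42). In amino acid catabolism and the urea cycle 17 of 31 were higher and 14 lower (median 0.02), with Nags, which makes the activator of the urea cycle, at -0.77 ± 0.36. Extracellular matrix and fibrosis genes were higher in 15 of 18 (median 0.16, or 0.09 without T3 withdrawal replicate 3, 0.29 without replicate 2 and -0.28 against baseline A), led by the collagen Col3a1 (0.70 ± 0.39), which read 6.17, 6.58 and 6.48 after withdrawal and 5.51, 6.37 and 5.26 in baseline B. The Col3a1 readings of 5.51 and 5.26 lay below the lowest detected signals of their arrays, 6.23 and 6.87, so its value is no exact difference. Bile acid and sterol export genes (median -0.04, 21 genes) and mitochondrial genes (median -0.02, 23 genes) lay near the median of all genes. The growth hormone and IGF list had a median of -0.07, with the hepatic binding protein Igfbp1 at -1.09 ± 0.50.

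Some other lists with large chronic medians had withdrawal medians near 0.03, that of all genes. The cholesterol and antioxidant lists, the macrophage markers and the extracellular matrix list (medians 0.58 and 0.16) did not. Nor did the cholangiocyte markers (2.35 and 1.77, 2 genes measured) and the monocyte and neutrophil markers (1.32 and 0.88, 3 genes measured). The median of male-biased liver genes was -0.65 after chronic T3 and -0.01 after withdrawal. Interferon response genes had medians of 0.66 and -0.07 (-0.18 to -0.09 leaving out each of the 6 arrays in turn). All withdrawal arrays lay below all baseline B arrays in 9 of these 31 genes and above them in 3. The shares of all genes were 5.37% and 9.17%. Cell cycle and DNA replication genes had medians of 1.24 and 0.00, the latter -0.17 without T3 withdrawal replicate 1 and 0.11 without replicate 2. The median of female-biased liver genes was 1.73 after chronic T3 and 0.06 after withdrawal, and -0.23 without T3 withdrawal replicate 3. That list holds Ntrk2, and its 15 measured members lay between -1.68 and 2.72 after withdrawal, 8 higher and 7 lower, so its median describes no single member. Only 1 of the 15 had a 95% interval within 2-fold, against 15 of 26 male-biased and 18 of 31 interferon response genes. Within the latter list Zbp1, a sensor of nucleic acids, read 6.92, 7.02 and 7.15 after withdrawal and 7.55, 7.36 and 7.83 in baseline B (-0.55 ± 0.18, adjusted p = 0.512).

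**Figure D5:**
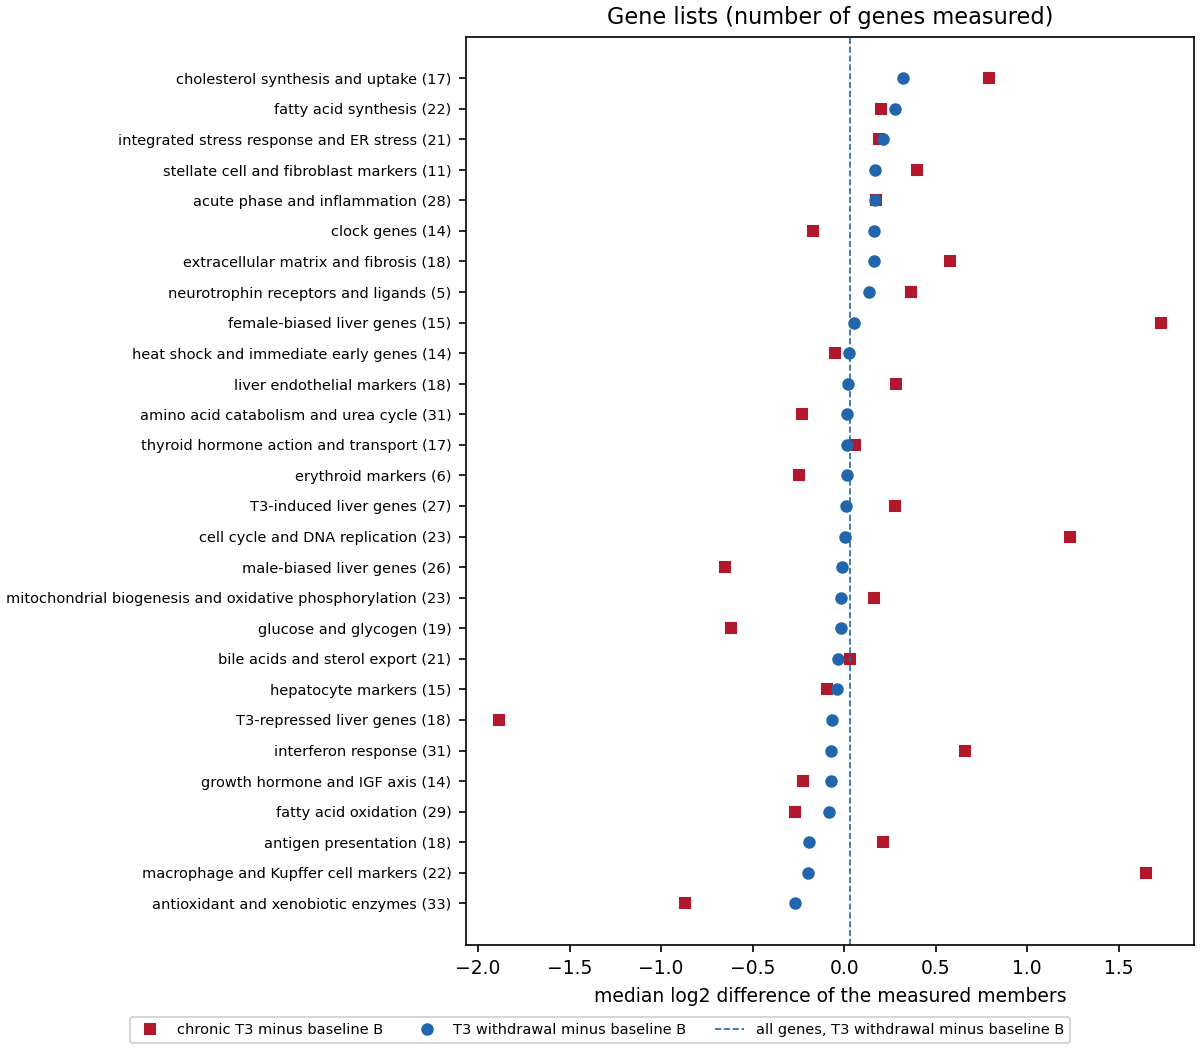
Median log2 difference (horizontal axis) of the measured genes of each list with at least 5, after chronic T3 (red squares) and after withdrawal (blue circles), both against baseline B. The dashed line is the median of all genes after withdrawal, 0.03. Withdrawal medians lie between -0.27 and 0.32, and those after chronic T3 between -1.89 and 1.73. Under median scaling the withdrawal median of all genes is 0.40, and the lists move with it.

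Markers of other liver cells were read as whole lists. Of 25 macrophage and Kupffer cell markers 22 were measured, 5 were higher and 17 lower after withdrawal, and the median was -0.20. It was -0.04 without baseline B replicate 1, -0.34 without baseline B replicate 2, -0.13 without T3 withdrawal replicate 1 and 0.19 under median scaling, again below the 0.40 of all genes. Their summed intensity was 11700 to 12900 after withdrawal, 11160 to 16180 in baseline B and 32360 to 57710 after chronic T3. With chronic T3, 21 of the 22 genes rose, beside 12.4% of all genes. Folr2, a folate receptor of resident macrophages, read 7.50, 7.95 and 7.81 after withdrawal, below baseline B at 8.50, 8.02 and 8.11 (-0.45 ± 0.20), and after chronic T3 it read 10.57, 10.62 and 10.20. In the antigen presentation list 13 of 18 genes were lower (median -0.19, 0.17 under median scaling and 0.11 against baseline A), with the class II loading factor H2-DMa at -1.15 ± 0.35 (adjusted p = 0.465).

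Of 12 cholangiocyte markers 2 were measured, Tff3 and Sox9, and Krt7, Krt19 and Epcam were not among the genes tested. Sox9, a transcription factor of bile duct cells, read 9.90, 9.66 and 9.04 after withdrawal, 8.28, 8.69 and 8.71 in baseline B, 8.51, 8.96 and 8.22 after chronic T3 and 9.79, 9.34 and 10.51 in baseline A (0.97 ± 0.33 against baseline B, adjusted p = 0.512). The summed intensity of both genes was 891 to 2997 after withdrawal, 320.1 to 708.1 in baseline B and 2067 to 2855 in baseline A, and its part in the Tff3 value was not tested. Of 15 monocyte and neutrophil markers 3 were measured, and S100a8, a calcium-binding protein of neutrophils, read 7.43, 8.52 and 7.33 against 7.38, 5.32 and 5.11 (1.83 ± 0.63, adjusted p = 0.512), with overlap. The S100a8 readings of 5.32 and 5.11 lay below the lowest detected signals of their arrays, 6.26 and 6.87. Its value is thus a difference of measured signals and no exact difference. Endothelial and stellate cell markers had medians of 0.02 (-0.17 without T3 withdrawal replicate 3) and 0.17 (0.06, without T3 withdrawal replicate 1, to 0.29, without baseline B replicate 1, leaving out each of the 6 arrays in turn).

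The number of calls depended on the untreated group. With baseline A in place of baseline B, the same withdrawal arrays gave 255 calls (2.84%), of which 129 rose (1.44%) and 126 fell (1.4%), and against the mean of both untreated groups they gave 21 (0.234%), of which 11 rose (0.123%) and 10 fell (0.111%). Baseline A belongs to the other experiment subset, so a difference from it and a difference between subsets cannot be told apart. Ntrk2 was called against each of the 3 references (log2 differences 2.72, 2.49 and 2.61).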

How the data were processed

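Total RNA of mouse liver was biotin-labelled and hybridised to Illumina bead arrays, per the labels' protocols. The deposited intensity of each probe and array is on a linear scale and not normalized between arrays, per the file headers. A detection p-value was deposited beside each intensity, per the file headers. A series table of intensities normalized by the authors was an alternative. Partek 6.6 is named without a role in the submitters' processing notes.

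The function neqc of limma 3.58.1, run in R 4.3.3 with an offset of 16, subtracted the background estimated from the detection p-values, applied quantile normalization and took log2. Probes entered where at least 3 of the 15 arrays gave a detection p below 0.01 (15361 of 45281 probes, of which 2123 had no single gene). Probe names came from the platform annotation (34885 probes with 1 gene, 18 with several, 10378 with none). Each gene was read from its brightest kept probe, and 3085 of 8976 genes had 2 or more.

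A single limma model estimated the mean of each group from all 15 arrays (residual degrees of freedom 10, moderated 13.1). Tests were 2-sided and adjusted by Benjamini-Hochberg over all genes, and called means an adjusted p under 0.05. Only called genes are said to rise or fall. "At least" marks a fold where a probe was not detected on any array of the dimmer group but on most of the brighter one, and the dimmer level was then set at the lowest detected signal of each array or its own, if higher. The number of arrays limits the precision, and a permutation test of 3 against 3 cannot go below p = 0.1. The fit was tested on simulated data. Named were Ntrk2, the called genes, the 10 of smallest p in each direction, the 12 largest chronic rises and falls, up to 3 genes of smallest p per list and 11 genes of the question, without predicted or RIKEN-type symbols. A few list members beside these (Ngfr, Sort1) complete a short list and were chosen after their values were seen. The genes and lists were chosen with earlier results of these data known. Replicate numbers did not pair arrays: same-numbered arrays correlated at r = 0.0644, 0.00529 and 0.0654 after removal of group means. Alternatives covered background correction, scaling, offset, filters, probe summary, arrays in the fit, weights, thresholds, the untreated group and leaving out each array. No slide is given in the sources used here, so none was fitted as a block.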

Additional observations from a re-analysis of the deposited data

How the results depend on the processing

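Ntrk2 was the 1 called gene, with a log2 difference of 1.49 to 2.99, under the other background corrections, scalings (but for median scaling relative to the median of all genes), offset, filters, probe summaries, variance models and the authors' values. The count was 2 under median scaling relative to the median of all genes (Ntrk2 and Olfr1471) and without chronic T3 replicates 2 and 3 (Ntrk2 and Armcx1), both chosen after seeing the data. It was 3 with array weights (Nkrf, Ntrk2 and Olfr1471), a fit that stopped before full convergence. It was 0 with only the 6 arrays compared, the 9 arrays of the second subset, or the replicate block on the 6 arrays, and there 0 list genes were called too. The Ntrk2 difference remained 2.72 in these fits, with adjusted p of 0.166 and 0.0854 where only fewer arrays estimate the spread, and 0.413 where the replicate block was added to the 6 arrays. An adjusted p under 0.2 gave 5 genes, and an unadjusted p under 0.01 gave 165 genes and 13 list genes. Baseline A gave 255 genes and 39 list genes, and the mean of both baselines 21 and 10. Leaving out 1 array gave 1 to 4 genes, the 4 without baseline B replicate 2 (Ntrk2, Dnaja1 at 1.36 with adjusted p = 0.0199, Olfr1471 at -1.65 with adjusted p = 0.0145, and a RIKEN-type gene). Genes with an interval within 2-fold numbered 5008 under median scaling, 17025 of 19057 without a filter on dim probes and 12600 of 15361 with each probe tested, and 4739 had one within 1.5-fold. Where no cause is named, the cause was not tested. Of the single-gene results under alternatives, 3517 stayed on their side of the threshold, 255 moved by more than the spread and 59 became called. Weak signal over background limits the values of dim genes.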
